A study of Homo sapiens with 6 samples.

Results

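In MDA-MB-231 breast cancer cells, 17 of the 19775 genes read by a single-symbol probe set met a rule for a signal that was present in the GFP control and at or near background in the arrays labelled GATA3. They were chosen from these same readings. The lowest of the 3 GFP control values had to be 6 or more on the log2 scale, and the highest of the 3 GATA3 values 4.5 or less. Of the 41091 single-symbol probe sets, 19 met these bounds once a list of gene families (keratins, cadherins, collagens and others) and single genes had been left out. The genes are PCLO, NEGR1, SORCS2, GPC6, GAL, NTN4, CCDC3, IRX5, KHDRBS3, ZNF804A, CYP1A1, AKT2, EMP1, TMEM71, SLAIN1, CCDC69 and DUXAP10. Without the names left out, 28 genes (33 probe sets) met the bounds, and the mirror-image bounds, high in GATA3 and low in the GFP control, were met by 84 genes. Because the rule used both groups, the difference between the groups in these genes is a description and carries no test. The name "switched off" does not hold throughout. Of the 19 probe sets, 3 (in CYP1A1, EMP1 and SORCS2) stayed just over the detection level of 4 on all GATA3 arrays. The CYP1A1 values there are nearly identical, and whether they hold signal was not tested. EMP1, AKT2 and NEGR1 each had another probe set that lay over the level of 4 on all 6 arrays.

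MDA-MB-231 is an established human breast cancer line of basal, mesenchymal-like character. A lentivirus delivered eGFP alone (GFP control, 3 arrays) or GATA3 with eGFP (GATA3, 3 arrays), and both cell populations were sorted for GFP. Both groups grew in high-glucose DMEM with serum, and RNA was taken 2 days after seeding. The promoter of the vectors, and whether a population was a clone or a pool, are not given in the sources used here, and nothing says that the 3 arrays of a group came from separate cultures, so the spread between arrays may be technical. The comparison asks which transcripts differ once the cells carry GATA3. GATA3 is a zinc finger transcription factor needed for the luminal cells of the mammary gland, and it binds short DNA motifs with GATA at their core. A gene can be lower after its introduction through direct binding or through other regulators, which expression arrays do not separate.

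GATA3 went against the label. Probe set 209604_s_at read 9.37, 9.35 and 9.45 in the GFP control and 7.93, 7.94 and 7.32 in the arrays labelled GATA3 (limma, log2 difference -1.66, adjusted p 0.00238). The dimmer 209602_s_at averaged 4.73 and 3.24 (limma, log2 difference -1.48, adjusted p 0.00444), and 209603_at reached 2.54 at most. Every direction here thus rests on the labels. Whether the probes of these GATA3 probe sets read the introduced sequence is not known. Markers of the line were bright in both groups, with VIM at 15.03 and 14.72 and CD44 at 13.69 and 13.62 (means of 3 arrays). All 4 endothelial markers and the 3 leukocyte markers on the array lay under the detection level of 4, and of the 5 fibroblast markers DCN, COL1A2 and THY1 did so. Of 7 epithelial markers, 6 were measured and 6 rose, while 5 of 8 markers of the mesenchymal-like line fell (of all 10814 genes tested, 14.8% rose and 14.5% fell by limma), VIM among them by 0.32 on the log2 scale. Of 5 luminal breast markers, 2 were measured, ESR1 and XBP1, and neither passed (limma, adjusted p 0.441 and 0.756). ESR1 averaged 4.02 in the GFP control and reached 4.45 at most on any array, and whether this is signal was not tested. FOXA1, PGR and TFF1 lay under 4. The part of these marker changes in the values below was not tested. GATA3 replicate 3 stood somewhat apart, correlating at 0.984 and 0.986 with the other arrays of its group against 0.997 between those, and its raw file alone carries another date. Between 23603 and 23709 probe sets per array lay over 4. A value over 4 need not be signal, as 190 probe sets over 4 varied by less than 0.01 over all arrays.

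The 19 member probe sets read between 6.02 and 8.73 on the GFP control arrays, and their median group mean of 6.73 lay below the 8.50 of all 23785 tested probe sets. In these bulk samples, fewer cells with a transcript and less of it per cell cannot be told apart. Their median log2 difference was -3.59, against -0.05 over all tested probe sets. Of these 19 probe sets, 19 were called lower by limma, a count the rule itself fixes, where 14.0% of all tested probe sets were called lower. For 11 probe sets no GATA3 array exceeded 4, and the other 8 had 1 to 3 GATA3 arrays over it. As a value over 4 need not be signal, this split does not show how deep each low state was. In 7 probe sets, at least 2 GATA3 arrays shared a value to within 0.005, among them CYP1A1, IRX5, SLAIN1 and both PCLO probe sets. The median SD was 0.20 in both groups, higher than the 0.09 and 0.14 of all tested probe sets.

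**Figure D1:**
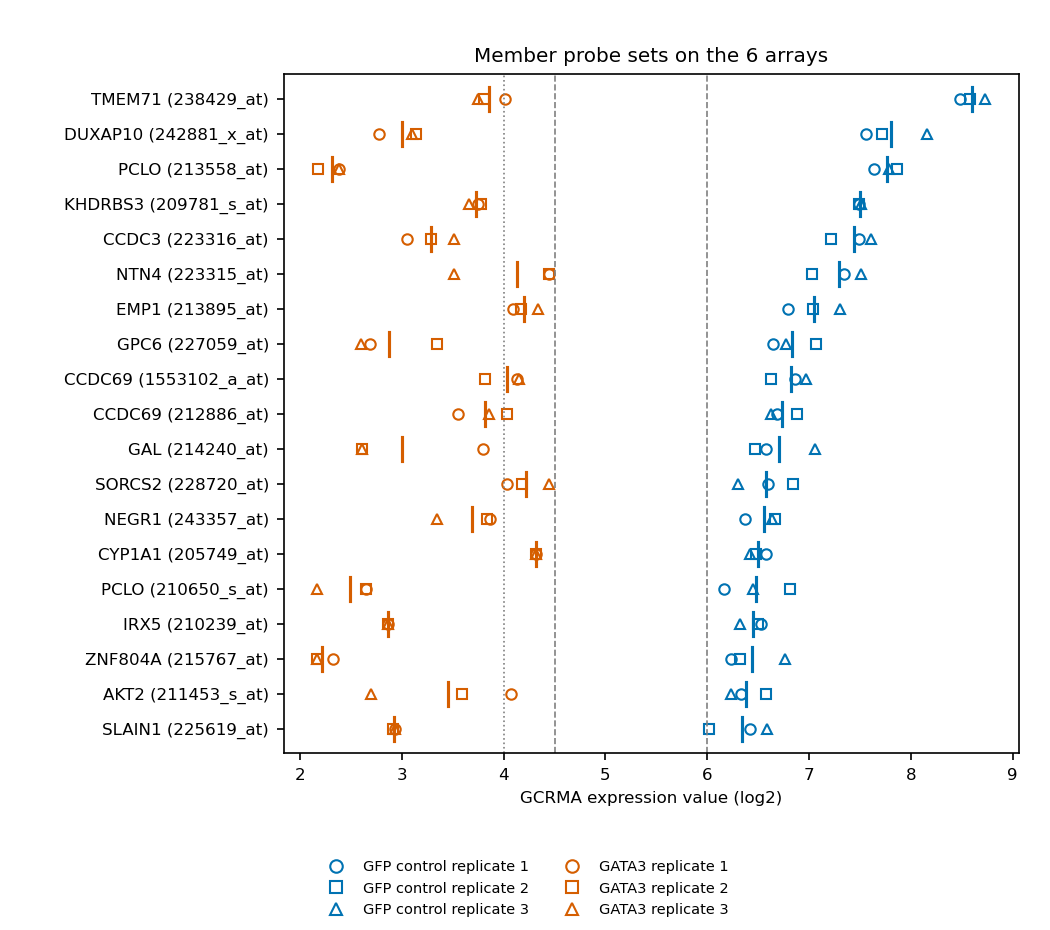
Each row is a member probe set and each symbol an array, with the GCRMA value (log2) on the x axis, GFP control in blue and GATA3 in orange; short vertical bars are means of 3 arrays. Dashed lines mark the bounds of 6 and 4.5 and the dotted line the detection level of 4. ZNF804A and PCLO reach the lowest GATA3 values and TMEM71 has the highest GFP control values shown, while CYP1A1, EMP1 and SORCS2 keep all GATA3 arrays over 4.

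Several members encode proteins best known from neurons. PCLO encodes piccolo, a giant scaffold of the presynaptic active zone. Its probe set 213558_at read 7.64, 7.86 and 7.78 in the GFP control and 2.38, 2.17 and 2.38 in GATA3, at least 13.6-fold lower against the detection level. The other PCLO probe set in the rule (210650_s_at) read 6.16, 6.81 and 6.45 and then 2.65, 2.65 and 2.16, at least 5.57-fold lower. Both placed PCLO near the floor of 2.16, which PCLO's last probe set (217096_at) showed on all 6 arrays. The RefSeq window around the PCLO start site (GRCh38.p14, minus strand, chr7:83162835-83163134) is shown because both PCLO probe sets that met the rule lay far under the detection level in GATA3. Capitals mark its only match among the motifs searched, a ZEB-type E-box on the reverse strand.
PCLO: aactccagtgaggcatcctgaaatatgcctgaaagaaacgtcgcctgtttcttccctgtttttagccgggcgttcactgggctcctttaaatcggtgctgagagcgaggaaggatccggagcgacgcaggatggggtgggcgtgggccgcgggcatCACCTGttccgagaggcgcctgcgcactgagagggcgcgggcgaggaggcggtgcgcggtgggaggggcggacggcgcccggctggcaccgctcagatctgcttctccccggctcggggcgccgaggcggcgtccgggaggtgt

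NEGR1, SORCS2 and GPC6 encode cell surface proteins. NEGR1 is a GPI-anchored adhesion molecule of the IgLON family. Its probe set 243357_at read 6.37, 6.66 and 6.64 in the GFP control and 3.87, 3.84 and 3.35 in GATA3, at least 5.89-fold lower. NEGR1 did not vanish by its brightest probe set (229461_x_at), which read 8.93, 9.15 and 9.24 against 7.50, 7.52 and 6.0, a mean difference of -2.10 with all GATA3 arrays well over 4. That probe set carries a suffix for probes that may match other transcripts. The dimmer 1553194_at averaged 4.89 ± 0.09 (SD, n = 3) and 3.23 ± 0.29 (SD, n = 3), so the 3 probe sets with signal shared the direction and differed in depth. SORCS2, a sorting receptor of the VPS10 family that binds proneurotrophins, had the narrowest gap between the lowest GFP control and the highest GATA3 array, at 1.86. It read 6.59, 6.84 and 6.30 in the GFP control and 4.03, 4.18 and 4.44 in GATA3 (5.14-fold between the means), with all 3 GATA3 arrays just over the detection level. GPC6 encodes a glypican, a heparan sulphate proteoglycan anchored at the membrane, which read 6.65, 7.07 and 6.77 and then 2.69, 3.35 and 2.60, at least 7.11-fold lower. Its other probe set (223730_at) peaked at 3.12 and gave no signal in either group.

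Among the secreted products, GAL encodes the neuropeptide galanin. GAL read 6.58, 6.47 and 7.06 in the GFP control. In GATA3 it read 3.80, 2.61 and 2.61, so GATA3 replicate 1 was higher than the other two, and the fall was at least 6.50-fold. The other GAL probe set (207466_at) stayed at the floor of 2.16 on all 6 arrays. NTN4 encodes netrin 4, a laminin-related protein of basement membranes. It read 7.35, 7.02 and 7.51 in the GFP control against 4.45, 4.45 and 3.51 in GATA3 (log2 difference -3.16, or -3.00 with values under 4 set at 4), and the repeated 4.45 sat closest to the upper bound of all members. CCDC3, whose product is secreted, read 7.49, 7.21 and 7.61 and then 3.05, 3.29 and 3.51, at least 10.8-fold lower. Of these 3 genes, GAL and CCDC3 stayed at or under 4 on all GATA3 arrays and NTN4 on 1 of them.

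The regulators of transcription and RNA among the members were IRX5, KHDRBS3 and ZNF804A. IRX5, a homeobox transcription factor of the Iroquois family, read 6.53, 6.50 and 6.32 in the GFP control and 2.86 on each GATA3 array, at least 5.47-fold lower. KHDRBS3, an RNA-binding protein that takes part in alternative splicing, was the steadiest member in the GFP control at 7.50, 7.49 and 7.51. Its GATA3 arrays read 3.75, 3.78 and 3.66, at least 11.3-fold lower. The other KHDRBS3 probe set (230249_at) stayed at the floor of 2.16 on all 6 arrays. ZNF804A, a zinc finger gene, read 6.24, 6.32 and 6.76 and then 2.32, 2.17 and 2.16, at least 5.43-fold lower and at the floor of the array. In all 3 genes the GATA3 arrays lay under the detection level by the probe set that met the rule.

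CYP1A1 and AKT2 encode enzymes, and in both the reading needs care. CYP1A1 is the cytochrome P450 induced through the aryl hydrocarbon receptor. It read 6.58, 6.48 and 6.42 in the GFP control and 4.32, 4.31 and 4.32 in GATA3, 4.52-fold between the means, the smallest fold of the 19 probe sets. The 3 GATA3 values are nearly identical and lie over 4, and whether they hold signal was not tested. The CYP1A1 window (GRCh38.p14, minus strand, chr15:74725479-74725778) is shown because it holds a TATA box at base -32 from the start site, in capitals together with an E-box of the ZEB type at -235.
CYP1A1: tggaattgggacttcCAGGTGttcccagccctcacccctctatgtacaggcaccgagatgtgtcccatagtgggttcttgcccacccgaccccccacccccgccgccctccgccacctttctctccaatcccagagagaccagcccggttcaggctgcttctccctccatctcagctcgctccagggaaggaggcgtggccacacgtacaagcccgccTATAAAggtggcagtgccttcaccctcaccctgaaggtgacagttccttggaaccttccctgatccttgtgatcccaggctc

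AKT2, a kinase of the insulin and PI3K pathway, entered by 1 of its 7 probe sets and was not lower by its bright ones. Probe set 211453_s_at read 6.33, 6.57 and 6.23 in the GFP control and 4.07, 3.59 and 2.69 in GATA3. With the 2 GATA3 arrays under detection set at 4, the log2 difference was -2.35. A second dim probe set (203809_s_at) read 5.71, 5.97 and 5.35 against 4.65, 4.77 and 2.87. In both, GATA3 replicate 3 was the lowest. By contrast, 225471_s_at read 9.65, 9.48 and 9.51 in the GFP control and 9.70, 9.66 and 9.39 in GATA3, and 226156_at read 9.46, 9.50 and 9.43 against 9.48, 9.51 and 9.24. The groups overlapped in these 2 probe sets, with mean differences of 0.03 (SE 0.10) and -0.05 (SE 0.08). The remaining 3 read 4.11 or less on every array. The AKT2 data thus show a difference in some of its probe sets and no loss of the gene's brightest signal. Which transcripts each probe set reads was not examined here.

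EMP1, TMEM71, SLAIN1 and CCDC69 belong to the membrane and the cytoskeleton. EMP1, a small tetraspan membrane protein related to PMP22, remained one of the brighter genes. Its probe set in the rule (213895_at) read 6.79, 7.04 and 7.31 in the GFP control and 4.09, 4.17 and 4.34 in GATA3, 7.19-fold between the means. The brightest EMP1 probe set (201324_at) read 12.16, 12.32 and 12.39 and then 11.12, 11.17 and 11.10, a 2.23-fold difference. Likewise 201325_s_at averaged 11.67 ± 0.08 (SD, n = 3) and 10.55 ± 0.11 (SD, n = 3), 2.18-fold, and 229011_at differed 4.33-fold. All 4 probe sets with signal were lower without overlap. In GATA3, 229011_at read 4.83, 5.44 and 4.83, and only the dimmest, 213895_at, met the bounds. The bright 201324_at and 201325_s_at still averaged 11.13 and 10.55 there, so EMP1 was reduced and not off. The EMP1 window (GRCh38.p14, plus strand, chr12:13196476-13196775) is printed as the only searched member window with AP-1 matches. These begin at bases -175 and -48 and are in capitals.
EMP1: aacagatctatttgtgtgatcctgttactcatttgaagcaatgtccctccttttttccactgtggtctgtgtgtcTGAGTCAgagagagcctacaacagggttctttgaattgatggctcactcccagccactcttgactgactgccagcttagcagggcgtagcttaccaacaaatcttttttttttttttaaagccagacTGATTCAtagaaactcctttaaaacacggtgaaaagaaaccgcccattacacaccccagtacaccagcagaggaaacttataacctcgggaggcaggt

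**Figure D2:**
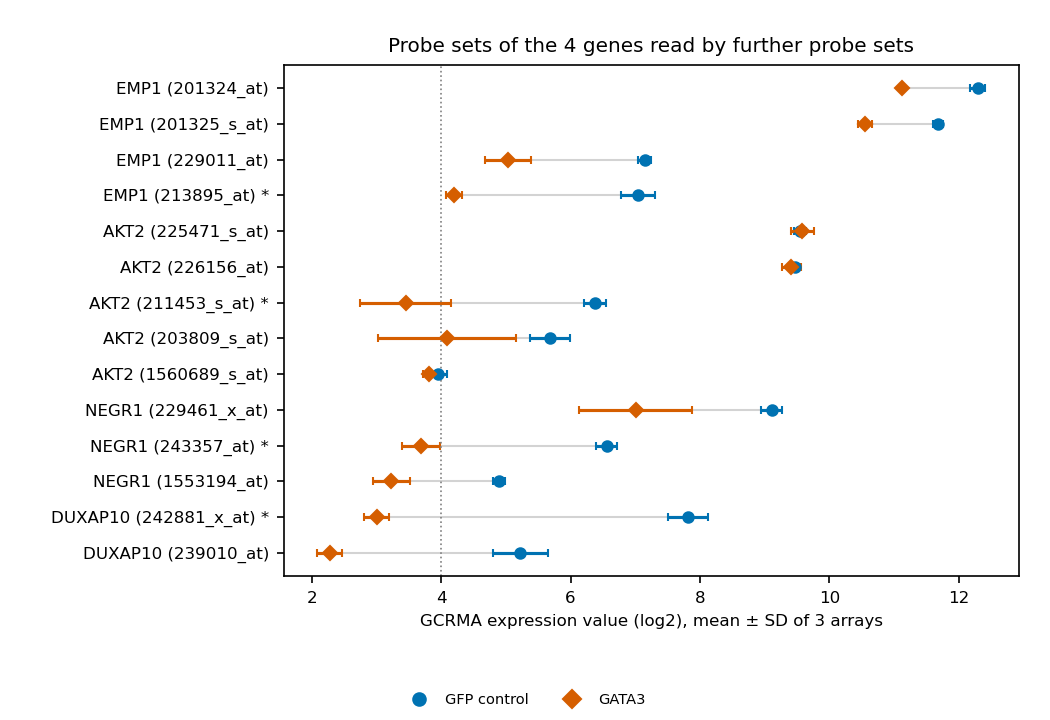
GCRMA values (log2, x axis; mean ± SD of 3 arrays) of the probe sets of EMP1, AKT2, NEGR1 and DUXAP10 that exceeded 4 on at least 1 array, GFP control as blue circles and GATA3 as orange diamonds; asterisks mark the probe sets that met the rule and the dotted line is the detection level of 4. The bright EMP1 probe sets stay above 10 in GATA3 and the 2 bright AKT2 probe sets coincide between the groups.

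TMEM71 encodes a predicted membrane protein. It read 8.48, 8.58 and 8.73 in the GFP control and 4.01, 3.80 and 3.74 in GATA3, with 1 GATA3 array just over 4. The log2 difference was -4.75, or -4.59 with values under 4 set at 4. CCDC69, known from the central spindle of dividing cells, met the rule by both of its probe sets. Probe set 1553102_a_at read 6.86, 6.63 and 6.97 in the GFP control and 4.13, 3.82 and 4.15 in GATA3, and 212886_at read 6.68, 6.88 and 6.63 against 3.55, 4.04 and 3.86. Both CCDC69 probe sets thus had GATA3 values on both sides of 4, and no array of one group overlapped the other.

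SLAIN1 encodes a protein of growing microtubule ends. It read 6.42, 6.02 and 6.59 in the GFP control, the lowest mean of the members, and 2.93, 2.92 and 2.93 in GATA3, at least 5.07-fold lower. RefSeq lists 3 start sites for SLAIN1. The third (GRCh38.p14, plus strand, chr13:77740969-77741268) is printed because it held the only GATA match in the member windows searched. In capitals are a TATA box beginning at base -30 and the GATA motif beginning at base -4. The data do not show which start site the probe set reads.
SLAIN1: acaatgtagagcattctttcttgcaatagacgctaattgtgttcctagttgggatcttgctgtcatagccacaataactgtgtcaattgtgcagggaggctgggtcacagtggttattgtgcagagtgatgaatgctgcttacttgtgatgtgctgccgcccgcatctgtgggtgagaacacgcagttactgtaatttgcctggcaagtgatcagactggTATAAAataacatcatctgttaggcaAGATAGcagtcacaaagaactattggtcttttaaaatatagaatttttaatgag

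DUXAP10 is a transcribed pseudogene of the DUXA homeobox family with near-identical copies, so which copy was read is uncertain. Probe set 242881_x_at read 7.56, 7.71 and 8.16 in the GFP control and 2.77, 3.14 and 3.09 in GATA3, at least 14.0-fold lower, the highest bound of the members. Its other single-symbol probe set (239010_at) read 4.90, 5.71 and 5.07 against 2.16, 2.50 and 2.16. The 2 probe sets annotated to several DUXAP and LINC genes differed less. One (242546_at) averaged 6.27 and 4.33, and the other (228116_at) 6.97 and 6.01, with no overlap between the groups in either. Signal of the wider DUXAP group was thus lower and, by 228116_at, still present.

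Across the members, 38 single-symbol probe sets were on the array. Besides the 19 in the rule, 6 lay over 4 on all 6 arrays (3 genes), 4 on some arrays and 9 on none. A rule that asked every probe set over 4 in the GFP control to meet the bounds kept 13 genes and lost AKT2, EMP1, NEGR1 and DUXAP10. Of the members just inside the bounds, SLAIN1 (6.02), PCLO by 210650_s_at (6.16) and AKT2 (6.23) had the lowest GFP control values, and NTN4 (4.45), SORCS2 (4.44) and EMP1 (4.34) the highest GATA3 values. Just outside were ADSS1, RBMS3-AS3 and FOXA2, whose lowest GFP control values were 5.85, 5.79 and 5.74. On the other bound, CPE, CRACR2A and RBMS3 had highest GATA3 values of 4.72, 4.73 and 4.75. The bounds therefore cut through a continuum of genes and set the number of members.

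Among genes that share a symbol root with a member, IRX3 fell and GPC1 rose by more than 2-fold. Of 28 such genes on the array, 11 were measured, meaning over 4 on at least 3 arrays. Of these, 3 fell and 1 rose by limma (27.3% and 9.09%), where 14.5% of all 10814 genes fell and 14.8% rose, and 7 did not pass. IRX3, the Iroquois neighbour of IRX5 in a shared gene cluster, read 10.08, 10.12 and 10.29 in the GFP control and 7.35, 7.55 and 6.48 in GATA3. The log2 difference was -3.04 (SE 0.29), or 8.21-fold down, and limma gave an adjusted p of 0.00136. IRX1, from the other Iroquois cluster, averaged 6.73 ± 0.20 and 6.78 ± 0.23 (SD, n = 3), with an adjusted p of 0.813 by limma. GPC1, another glypican, rose where GPC6 was lower, from 7.18 ± 0.21 to 8.60 ± 0.04 (SD, n = 3), 2.67-fold with an adjusted p of 0.000882 by limma. KHDRBS1 fell by 0.29 (adjusted p 0.00297) and EMP3 by 0.21 (adjusted p 0.0160), both on the log2 scale. The call of EMP3 was lost without GFP control replicates 1 or 2 (adjusted p 0.0561 and 0.0661) and without GATA3 replicates 1 or 2 (adjusted p 0.0554 and 0.0583), and with cyclic loess (0.0541). Without GATA3 replicate 3, 5 genes sharing a root fell, AKT1S1 and SLAIN2 besides these 3. AKT1, EMP2, SLAIN2, AKT1S1, GPC2 and NTN1 did not pass in the fit to all 6 arrays by their brightest probe set. Other probe sets of EMP2 and SLAIN2 did: EMP2 225079_at, nearly as bright, fell by 0.84 on the log2 scale (limma, adjusted p 0.00306), and the dimmer SLAIN2 224843_at by 0.77 (adjusted p 0.0187). NTN1 read 5.94 on each of them, and such a constant need not be signal. The 17 unmeasured genes sharing a root, among them GPC3, GPC4, GPC5, SORCS1 and SORCS3, reached 2.99 at most. A shared root of letters need not mean a shared gene family. CCDC, CYP, TMEM and ZNF roots were too common to be used.

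Measured partners of the members in their pathways fell, rose or did not pass. In a list of 20 active zone genes, 8 were measured, of which 2 fell and 2 rose. PCLO is among those that fell, as the rule fixes. Of all genes, 14.5% fell and 14.8% rose. Besides PCLO, STX1A fell by 0.54 on the log2 scale (limma, adjusted p 0.00916), and RIMS2, which primes synaptic vesicles, rose by 0.92 (adjusted p 0.00110) and UNC13B by 0.71 (adjusted p 0.00162). RIMS4, ERC1, UNC13A and PPFIA1 did not pass. RIMS4 averaged 5.58 in the GFP control and 5.56 in GATA3, and UNC13A 4.02 and 4.05, and such near-constant values need not be signal. The median difference of the list, PCLO included, was 0.01 against -0.02 over all genes. For CYP1A1, a set of aryl hydrocarbon receptor genes was added after the values of the members had been seen. Of 6 measured, 3 fell, where 14.5% of all genes did: CYP1B1, from 12.90 ± 0.13 to 11.47 ± 0.18 (SD, n = 3, limma adjusted p 0.000683), the receptor AHR, from 10.47 ± 0.12 to 9.50 ± 0.28 (SD, n = 3, adjusted p 0.00800), and NQO1 by 0.22 on the log2 scale (adjusted p 0.0230). The call of NQO1 was lost without GFP control replicates 1 or 3 (adjusted p 0.0798 and 0.0810) and without GATA3 replicates 1 or 2 (adjusted p 0.0727 and 0.0808), and also with cyclic loess (0.0608), no trend (0.0501) or no filter (0.0794). ARNT, TIPARP and CYP1A2 did not pass, CYP1A2 reading 5.34 on every array. Also added later, the 3 galanin receptor genes and the 4 other IgLON genes lay under 4, and SORL1, a relative of SORCS2, rose by 0.42 (limma, adjusted p 0.00702).

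The genes next to the members on the chromosome mostly did not share the difference. The nearest gene on either side with a single-symbol probe set gave 34 genes, of which 18 were measured. Of these, 3 fell and 2 rose (16.7% and 11.1%, against 14.5% and 14.8% of all genes), and the median log2 difference was -0.01. CAMK1D, a calcium/calmodulin-dependent kinase gene beside CCDC3, fell from 9.05 ± 0.16 to 4.97 ± 0.07 (SD, n = 3), 16.9-fold with an adjusted p of 1.57e-05 by limma. Its GATA3 arrays read 4.93, 5.05 and 4.93, and whether these values hold signal was not tested. The other CAMK1D probe sets reached 3.05 at most. ANXA6, a calcium-dependent membrane-binding protein beside CCDC69, fell from 12.12 ± 0.03 to 10.54 ± 0.07 (SD, n = 3), 3.01-fold (adjusted p 2.67e-05). The long non-coding RNA CRNDE beside IRX5 fell from 11.77 ± 0.13 to 10.76 ± 0.29 (SD, n = 3), 2.00-fold (adjusted p 0.00779), and its other probe set by 1.18 on the log2 scale. On the far side of CCDC3 and CCDC69, OPTN (-0.21, limma adjusted p 0.0688) and GM2A (0.03, adjusted p 0.779) did not pass. CACNA2D1, a calcium channel subunit gene beside PCLO, rose from 6.89 ± 0.25 to 9.31 ± 0.07 (SD, n = 3), 5.36-fold (adjusted p 0.000230). TTC5 beside DUXAP10 rose by 0.28 (adjusted p 0.0354). This call was lost in each fit that left out a GFP control array (adjusted p 0.0737, 0.103 and 0.0850) and without GATA3 replicates 1 or 2 (adjusted p 0.0785 and 0.0576), and with quantile scaling (0.0742) or no filter (0.0913). PCLO and CACNA2D1 thus lie side by side and differed in opposite directions.

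**Figure D3:**
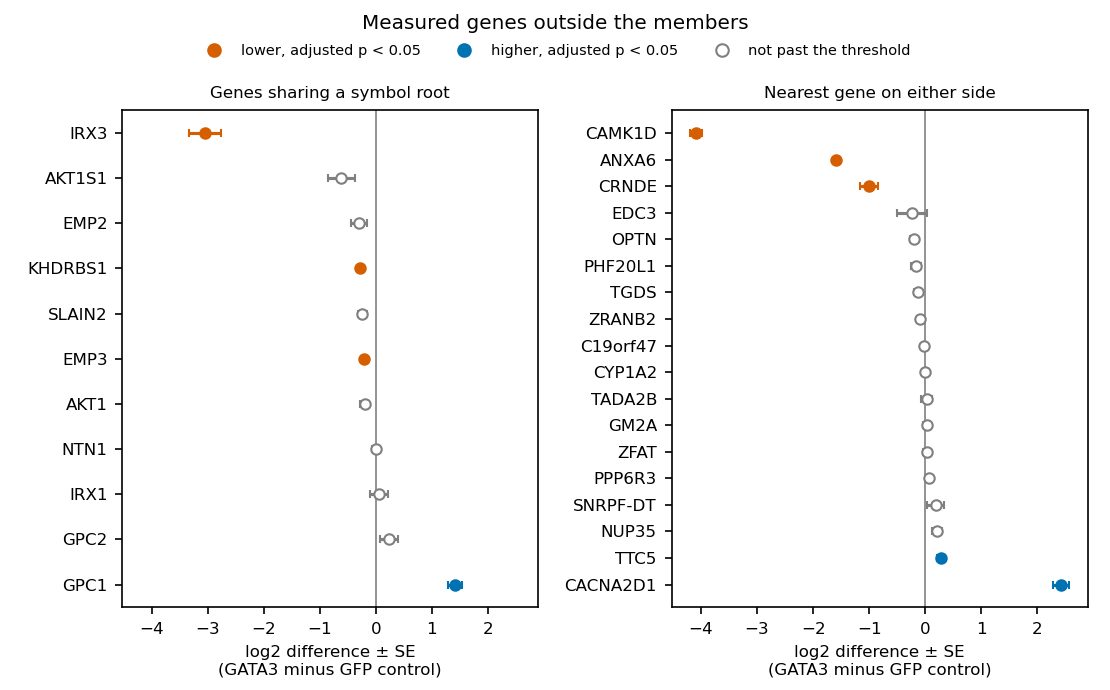
Log2 difference of GATA3 minus GFP control (x axis, with SE from limma, 3 arrays per group) for the 11 measured genes that share a symbol root with a member (left) and the 18 measured nearest genes (right). Filled orange points fell and filled blue points rose at an adjusted p under 0.05. IRX3 and CAMK1D lie far to the left, GPC1 and CACNA2D1 to the right, and most other points are near 0.

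RefSeq start site windows, 250 bases before to 50 after a start, were matched by symbol and kept for 10 members, which had 15 windows. For NEGR1, SORCS2, GAL, IRX5, KHDRBS3, TMEM71 and DUXAP10 no window was found or kept, and none was searched. The member windows had a median G+C content of 64.0% and 21 CpG dinucleotides, against 58.7% and 14 over all 35116 windows. They ranged from 40% G+C in GPC6 to 77.3% in CCDC3. Motifs were sought on both strands. A GATA motif (spelled AGATAA, with AGATAG, then TGATAA and lastly TGATAG as variants) lay in 1 of 15 member windows (6.67%), the SLAIN1 window printed above, against 25.0% of all windows. An E-box of the ZEB type (CAGGTG or CAGGTA) lay in 4 (26.7%, against 28.1% of all), those of CCDC69, CYP1A1, PCLO and SLAIN1. AP-1 (TGANTCA) lay in 1 (6.67%, against 7.71%), TEAD (CATTCC) in 2 (13.3%, against 14.0%) and the TATA box (TATAAA) in 3 (20%, against 11.5%). No single motif was shared by most of the members searched. A match is only a match of letters, and elements outside these windows were not searched.

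**Figure D4:**
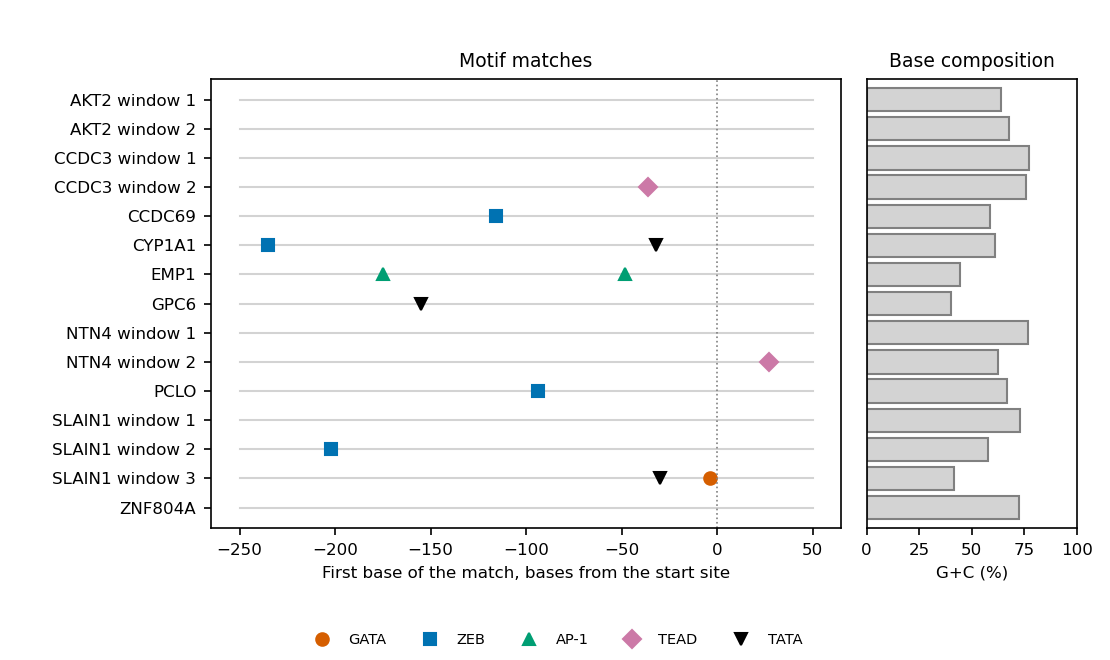
Left, first base of each motif match along the 15 RefSeq start site windows of 10 members, with bases from the start site on the x axis and 1 line per window; right, G+C content of each window in percent. The single GATA match is in the third SLAIN1 window, and 6 of the windows hold no match.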

How the data were processed

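Total RNA of 6 samples of MDA-MB-231 cells was hybridised to Affymetrix arrays, 3 per group, grouped by the labels. The authors deposited 1 value per probe set and array, with GCRMA as the tool that the submitters' processing notes name, without a version, and the deposited values were read as log2 from their range. Array number and signal over background limit the precision.

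Probe sets were named from the platform table, keeping the 41091 with a single symbol, and 62 control probe sets were left out. The 23785 probe sets over 4 on at least 3 arrays were fitted with limma 3.58.1 (lmFit, eBayes with trend, R 4.3.3), with Benjamini-Hochberg adjustment and a threshold of 0.05, after the code was tested on simulated data. Counts of genes took, for each gene, the tested probe set with the highest mean. A fold is called at least N-fold where no GATA3 array exceeded 4, and was then taken against 4. The rule for names took every member, GATA3, the 3 nearest genes outside each bound, relatives by symbol root past the threshold (up to 3 per family) and nearest genes on the chromosome (order from RefSeq, GRCh38.p14) that fell at least 2-fold. Other genes, among them CACNA2D1, TTC5, OPTN, GM2A, IRX1 and those of the lists, were named after their values were seen. Members and lists were chosen with earlier results of these data known. Alternatives were quantile and cyclic loess scaling, no filter, no trend, other bounds, a replicate block and leaving out each array.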

Additional observations from a re-analysis of the deposited data

How the results depend on the processing

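No result reversed, which for the member differences the bounds of the rule largely fix. The number of member genes, 17, followed the bounds: 6 with a GFP control bound of 7, 30 with 5.5, 10 with a GATA3 bound of 4, 26 with 5, 30 with group means, and 17 to 25 leaving out 1 array. The median member difference of -3.59 was -2.73 with values under 4 set at 4, and -3.59 to -3.50 leaving out 1 array. Of all tested probe sets, 3329 were lower: 1767 without the filter, 2106 with the replicate block, and 1683 to 3727 leaving out 1 array (dropping GFP control replicate 1 gave 1885, replicate 2 gave 1777, replicate 3 gave 1683, and dropping GATA3 replicate 2 gave 2125). The 2698 higher became 1734 to 3369 leaving out 1 array (1784 when GFP control replicate 2 was dropped, 1734 when GATA3 replicate 2 was). The 3 genes sharing a symbol root that fell became 2 to 5, the 5 without GATA3 replicate 3. The cause was not tested. Same-numbered arrays correlated at -0.135, 0.159 and -0.109 in their deviations from the group means. These values show no pairing by replicate number, but 3 arrays per group are too few to exclude it. With the replicate block in limma, the calls of EMP3 (adjusted p 0.0672), STX1A (0.0519) and TTC5 (0.0993) were lost.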

Other observations

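Of 8 measured phosphodiesterase genes, 5 fell and 1 rose by limma, where 14.5% of all genes fell and 14.8% rose. The gene that rose, PDE5A, averaged 5.36 in GATA3 and lay under the detection level of 4 in the mean of the GFP control. Among 6 measured genes of lysophospholipid signalling, 2 fell and 2 rose, with the receptor LPAR1 going from 11.04 to 7.79 and LPAR2 rising by 2.53. Of 9 measured complement genes, 4 rose (again against 14.8% of all genes), CLU by 1.03. Of 13 cancer-testis genes on the array 1 was measured, CT83, which did not pass (adjusted p 0.115).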
